A study of Mus musculus with 14 samples.

Results

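Coding exons held 263 of the 4327 CpG sites (6.08%) that the authors listed as differently methylated between 2 groups of mouse mammary tumours. A site was taken when the authors' annotation column called it exonic (262 sites) or splicing (1 site), so introns, untranslated regions and non-coding transcripts are left out. The 263 sites lay in 193 genes, of which 147 held 1 site, 27 held 2 and 19 held 3 or more. Coordinates are those of the deposited table, and the submitters' processing notes name GRCm38 and mm10, which share coordinates.

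The tumours came from FVB offspring that carried an SV40 Tag transgene and were about 25 weeks old. All offspring of both groups ate control diet throughout. The dams of the control group ate control diet, and the dams of the maternal genistein group ate 250 mg/kg genistein, a soy isoflavone that binds oestrogen receptors, from 4 weeks of age to weaning. Reduced representation bisulfite sequencing (RRBS), which reads methylation at CpGs near restriction sites, gave 3 control and 4 maternal genistein libraries. The promoter that drives the transgene, the litters and any batches were not given in the sources used here, so p-values measure the spread between these tumours and nothing wider. The tissue label could not be checked on levels, since RNA values were used for the authors' called genes alone. Of 11 mammary epithelial markers 4 were called in RNA, and of 12 markers of immune, endothelial, stromal and fat cells 0 were called. A call means a difference between the 2 groups, so these counts do not show which cells were present.

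Cytosine methylation at CpGs is copied to the new strand after DNA replication, so it passes to daughter cells. Coding exons away from gene starts are methylated in most mammalian cells, including those of transcribed genes, whereas CpG-rich gene starts are commonly free of methylation. In a bulk tumour an intermediate level means that some DNA copies are methylated and others are not, whether between cells or between alleles. A shift in cell types and a shift within a cell type therefore cannot be told apart.

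A single stretch of reference sequence covered exonic sites, and it shows what a measured CpG looks like at a gene start. In Rasip1, which encodes a Ras-interacting protein of blood vessel endothelium, 3 listed sites near the end of the gene lie 7, 13 and 48 bases after the start of A030001D20Rik, a long non-coding RNA gene on the opposite strand. The window of 300 bases around that start, from RefSeq (GRCm38.p6, chr7:45638709-45639008, minus strand, 5′ to 3′), follows with the 3 measured CpGs in capitals.
A030001D20Rik start: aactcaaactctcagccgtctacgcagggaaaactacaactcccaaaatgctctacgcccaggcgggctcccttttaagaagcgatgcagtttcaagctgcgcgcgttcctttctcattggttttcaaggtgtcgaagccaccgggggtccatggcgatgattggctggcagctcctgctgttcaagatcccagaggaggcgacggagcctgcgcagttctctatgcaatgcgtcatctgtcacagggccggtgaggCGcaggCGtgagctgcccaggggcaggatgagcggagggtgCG
The window holds 20 CG dinucleotides and 58.7% G or C, where the median of 32851 such windows is 7 CG. It also holds 2 copies of CCGG, a motif that reads the same on both strands, and 52.8% of all windows hold at least 1.

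Within a tumour the 3 Rasip1 sites had similar levels. At position 45638710 the control libraries were at 89.1%, 100% and 5.88% methylated, and the maternal genistein libraries at 39.4%, 55.6%, 5% and 64.9%. At position 45638745 the levels were 80.4%, 92.7% and 2.86% in controls against 39.4%, 55.6%, 5% and 62.5%. Control replicate 3 and maternal genistein replicate 3 were nearly unmethylated at all 3 sites, and the groups overlapped. The difference of mean levels was -23.8 points at the first of these positions (quasi-binomial p = 0.319).

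Of the 263 exonic sites, 146 (55.5%) had a higher mean level in maternal genistein tumours and 117 a lower one, against 53.1% higher over all listed sites. The authors chose the list on this same contrast, so the direction and size of these differences describe the list and are not a test of it. By reads pooled within groups the differences spanned 25.1 to 73.6 points in size. By the mean of library levels, which gives each tumour equal weight, they spanned 10.4 to 71.8 points, and 56 of the 263 sites fell under 25 points. Levels were mostly intermediate: 193 sites (73.4%) had a control mean between 20% and 80%, 28 lay below and 42 above.

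The spread between tumours of one group was as large as the differences. A quasi-binomial model of the read counts, which takes that spread as its error, gave a p under 0.05 at 80 exonic sites (30.4%), 44 higher and 36 lower. The background over all listed sites was 31.6%, with 17.1% higher and 14.5% lower. No exonic site passed Benjamini-Hochberg adjustment over the 4327 sites at 0.05 in this model, where the lowest adjusted p was 0.103 and 0.0462% of all listed sites passed. An unweighted linear model on the arcsine scale passed 4 exonic sites, and 23 of the 4327 listed sites. A chi-square reference passed 94 exonic sites, and 1731 of the 4327. The groups did not overlap at 65 exonic sites (24.7%, against 27.8% of all listed sites), 40 higher and 25 lower. The median distance from lowest to highest library was 41.2 points among controls and 46.7 points among maternal genistein tumours, and the difference between groups exceeded the wider of these ranges at 38 sites.

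**Figure D1:**
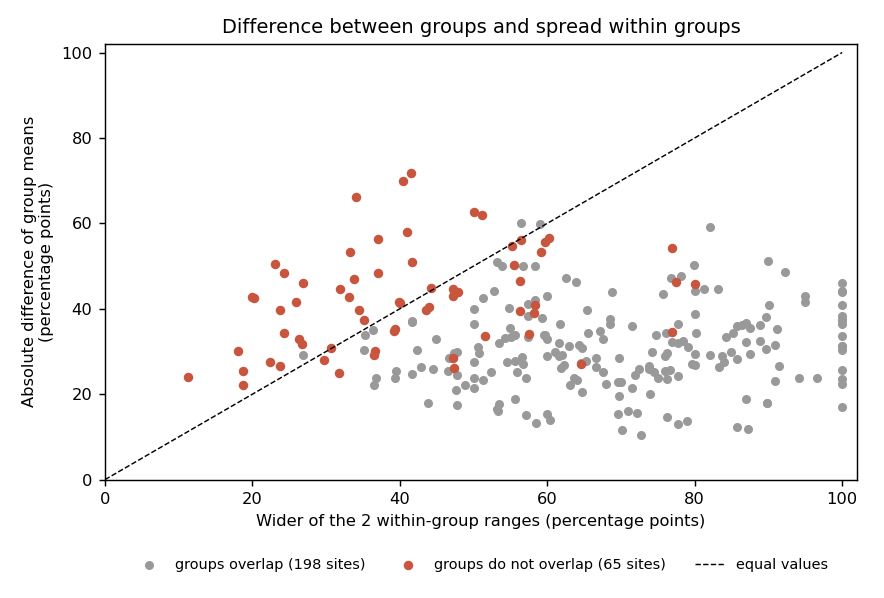
The wider of the within-group ranges of methylation, from lowest to highest library in percentage points, for the 263 exonic sites. It is plotted with the absolute difference between group means and the line of equality. The difference exceeded the wider range at 38 of the 263 sites, and the median wider range was 61.0 points.

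Coverage at exonic sites ran from 10 to 295 reads, and 42 sites had at least 20 reads in every library. Total reads at these sites were 11387 to 12512 in controls and 5576 to 11922 in the maternal genistein group, where replicate 4 was the shallowest with a median of 15 reads. Control replicate 2 had the lowest mean level of its group (46.3%, against 54.9% and 60.8%) and was the lowest control at 118 of 263 sites. Maternal genistein replicate 2 had the lowest mean of its group (48.6%, against 57.0% to 62.0%) and was often the lowest of its 4 libraries. The part of these libraries in the results was not tested beyond leaving each one out. Binomial intervals and limits given here cover counting error only, since PCR copies are not independent molecules.

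The 12 sites with the lowest p lay in 11 genes, 8 sites higher and 4 lower in maternal genistein tumours. Leaving out 1 library at a time kept the p under 0.05 at each of them in all 7 fits. At 11 of them every tumour of one group lay outside the range of the other, and the exception was Cntn1. With 3 and 4 libraries the two-sided exact permutation test cannot go below 0.0286, the value it gave at those 11 sites. It gave this value at 46 of the 263 exonic sites. The 12 sites were picked by p on these same levels, so separation and a low permutation p are not independent support.

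Among transcription factors, Lhx1, a LIM homeobox gene of kidney and head development, carried a site on chromosome 11 at position 84521886. Control tumours were at 50.6%, 36.1% and 17.3% and maternal genistein tumours at 90.3%, 87.5%, 85.7% and 88.2%. The maternal genistein tumours lay within a few points of each other and far above every control. The means were 34.7% ± 16.7 (SD, n = 3) and 87.9% ± 1.91 (SD, n = 4). The quasi-binomial p was 0.00138 (adjusted p = 0.103).

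Irx3, an Iroquois homeobox gene, had its site on chromosome 8 at position 91799474. The controls read 15.2%, 0% and 0%, and the maternal genistein tumours 48.9%, 58.0%, 61.0% and 100%. This site was at 15.2% or below in every control and between 48.9% and 100% in every maternal genistein tumour. The difference was 61.9 points, with a quasi-binomial p of 0.00474 (adjusted p = 0.117).

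E2f8 encodes an atypical E2F that represses cell cycle genes, and Zbtb38 a zinc finger protein that binds methylated CpGs. At the E2f8 site (chromosome 7, position 48875653) controls read 80%, 68.8% and 79.3% and all 4 maternal genistein tumours 100%. At the Zbtb38 site (chromosome 9, position 96687636) controls read 82.8%, 55.3% and 87.0% and all 4 maternal genistein tumours again 100%. Both sites thus lacked any unmethylated read in the maternal genistein group. Replicate 2 gave 10 reads at the E2f8 site, for which the exact 95% interval of a level of 100% reaches down to 69.2%. The quasi-binomial p was 0.00277 for E2f8 and 0.0041 for Zbtb38.

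Ywhag, which encodes the signalling adaptor 14-3-3 gamma, had the lowest p of the exonic sites. On chromosome 5 at position 135911472 the controls were at 50%, 73.7% and 57.1% and all 4 maternal genistein tumours at 100%. The difference was 39.7 points at 12 to 45 reads per library, with a quasi-binomial p of 0.00063 (adjusted p = 0.103). Under the arcsine model its adjusted p was 0.0287.

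Gpc2, a heparan sulfate proteoglycan of the cell surface, carried 2 of the 12 sites on chromosome 5. At position 138278451 the controls read 51.3%, 30.8% and 57.6% and the maternal genistein tumours 100%, 90%, 91.7% and 88.5%. At position 138278482, the other one, they read 41.0%, 35.9% and 61.8% against 88.9%, 100%, 85.7% and 76.9%. The groups were separated at both, with p of 0.00192 and 0.00691. The neighbouring site at 138278448 was higher as well, with a p of 0.0388 that rose to as much as 0.09 when 1 library was left out.

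Abcb1a encodes P-glycoprotein, a pump that exports drugs from cells. Its site on chromosome 5 at position 8685384 gave 0% in all 3 controls and 35.7%, 60%, 52.1% and 45.5% in maternal genistein tumours. The controls held 17, 20 and 12 reads, so a count of 0 allows levels of up to 17.6%, 15% and 25%. The quasi-binomial p was 0.000821 (adjusted p = 0.103). With no floor on the dispersion the adjusted p was 0.0417, and under the arcsine model 0.0211.

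Klhl1 encodes a kelch-like protein that binds actin in neurons, and its site lies 1028 bases from the RefSeq start on chromosome 14 at position 96518006. Controls read 22.7%, 33.3% and 47.1% and all 4 maternal genistein tumours 0%. With 11, 19, 21 and 11 reads those counts of 0 allow levels of up to 27.3%, 15.8%, 14.3% and 27.3%, so some low methylation was not detectable at this depth. The quasi-binomial p was 0.00152 (adjusted p = 0.104), and the arcsine model gave an adjusted p of 0.0400.

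Slx4ip, whose product interacts with the nuclease scaffold SLX4, had the widest difference of any exonic site. On chromosome 2 at position 137068045 controls read 89.8%, 100% and 89.1% and maternal genistein tumours 5.71%, 0%, 41.5% and 37.5%. The difference in means was -71.8 points (quasi-binomial p = 0.00447), and the CpG at 137068043 was lower too (-56.4 points, p = 0.0175). Cntn1, a contactin of neuronal cell adhesion, had overlapping levels at 18 to 186 reads per library (quasi-binomial p = 0.00703). Its controls read 97.4%, 93.5% and 95.1% and its maternal genistein tumours 30.3%, 82.4%, 54.6% and 100%, with a two-sided exact permutation p of 0.257.

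**Figure D2:**
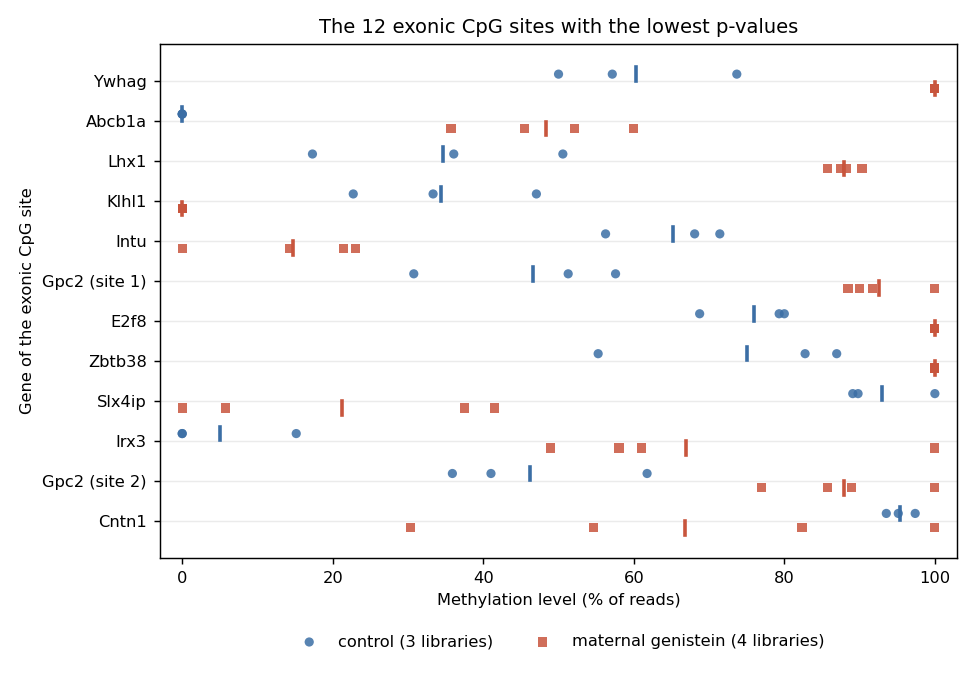
Methylation level in percent of each library at the 12 exonic sites with the lowest quasi-binomial p, with controls and maternal genistein tumours as separate points and the group means marked. The groups are separate at 11 sites and overlap at Cntn1.

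Other sites outside these 12 also had large differences without overlap. Aldh2, the mitochondrial aldehyde dehydrogenase, read 65.9%, 100% and 72.7% in controls and 17.6%, 0%, 27.1% and 9.09% in maternal genistein tumours at position 121578401 of chromosome 5 (quasi-binomial p = 0.00871). A second Aldh2 CpG 20 bases away overlapped between groups, with -22.1 points and p of 0.0669. Afp, the fetal serum protein alpha-fetoprotein, read 90.6%, 70.0% and 53.6% against 0%, 33.3%, 29.1% and 29.7% at position 90492716 of chromosome 5. Its p was 0.017 and became 0.0504 without control replicate 1.

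Sdk1, an immunoglobulin superfamily adhesion molecule of synapses, read 20%, 14.3% and 74.5% in controls and 85.7%, 85.7%, 100% and 100% in maternal genistein tumours. The control range was wide, and its p of 0.0408 reached 0.109 without control replicate 1. Fam160b1 read 11.7%, 9.52% and 50% against 100%, 75.0%, 100% and 100% (70.0 points, quasi-binomial p = 0.00924). Igsf10, of the immunoglobulin superfamily, read 26.3%, 0% and 50% against 84.6%, 83.7%, 83.9% and 100% (62.6 points, quasi-binomial p = 0.00975). These last 2 kept a p under 0.05 whichever library was left out.

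Lists of genes by role, 10 in all, took in 99 of the exonic sites, in 75 genes. Over all listed sites, 53.1% were higher, 31.6% had a p under 0.05 and the groups did not overlap at 27.8%. The developmental transcription factors held 16 sites in 11 genes, 7 higher and 9 lower, and 6 had a p under 0.05, 3 in each direction. Their median size of the difference was 35.3 points, against a median size of 31.6 points over all listed sites. Prdm1, a transcriptional repressor, was higher at position 44456844 of chromosome 10, with 31.9%, 15% and 0% in controls and 62.1%, 48.0%, 58.8% and 81.8% in maternal genistein tumours (quasi-binomial p = 0.0191). Hoxd12, a homeobox gene of limb patterning, was lower at position 74675269 of chromosome 2, with 38.5%, 30.8% and 57.1% against 0%, 25%, 0% and 12% (quasi-binomial p = 0.0329). Nr3c1, the glucocorticoid receptor gene, was lower at 39486552 on chromosome 18, with 66.7%, 75.0% and 52.1% against 46.7%, 16.7%, 7.32% and 46.2% (quasi-binomial p = 0.0416). None of these 3 sites kept a p under 0.05 in every fit with 1 library left out, where the p reached 0.0533 for Prdm1, 0.0898 for Hoxd12 and 0.105 for Nr3c1. Each of these genes had a second exonic site with the same direction and overlapping groups. The quasi-binomial p there was 0.341 for Prdm1, 0.0592 for Hoxd12 and 0.229 for Nr3c1.

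Zinc finger genes, 6 in number, held 8 sites, 3 higher and 5 lower, with a median size of 32.3 points. Of the 8 sites 2 had a p under 0.05, against 31.6% of all listed sites. Besides Zbtb38, this was Zfp827, lower in maternal genistein tumours with 53.6%, 33.3% and 53.3% in controls and 17.1%, 0%, 0% and 0% (quasi-binomial p = 0.0145, and 0.0715 without control replicate 1). The 4 chromatin regulators each held 1 site, and all 4 were higher with a median of 25.9 points, but 0 had a p under 0.05. They were Bcorl1, a corepressor (29.7 points, quasi-binomial p = 0.052), Sirt1, a deacetylase (22.1 points), Kdm4c, a histone demethylase (32.0 points), and H1fnt, a linker histone of spermatids (15.5 points). H1fnt turned to -7.93 points without control replicate 3.

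Growth factor, kinase and phosphatase genes held 6 sites in 5 genes, 3 higher and 3 lower, and 0 had a p under 0.05. Bmp4, a morphogen of the TGF-beta family, held 3 of the 4 sites in WNT, Notch, Hedgehog and TGF-beta genes, which were all higher with a median of 43.5 points and 1 with a p under 0.05. The 3 Bmp4 sites were at 14.3% or below in every control. At position 46385965 of chromosome 14 its controls were all at 0%, and the maternal genistein tumours read 60%, 36.4%, 0% and 80% (quasi-binomial p = 0.0102). Replicate 3 showed no methylated read there, as in the controls.

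Of 9 sites in 5 genes of G protein and small GTPase signalling, 7 were lower and 2 higher, with a median size of 40.3 points. A p under 0.05 was found at 1 of the 9, against 31.6% of all listed sites. Gnaz, the alpha subunit of Gz, was higher with 57.5%, 57.1% and 24.4% in controls against 100%, 95.7%, 80.4% and 80% (quasi-binomial p = 0.0162), the 1 site of the list with a p under 0.05. Ptger1, a prostaglandin E2 receptor, was lower at 3 sites, with differences of -40.3 to -47.6 points, and its groups overlapped at each. In maternal genistein replicates 2 and 4 all 3 of these sites were at 0%, while replicate 3 read 50%, 68.8% and 78.1%.

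Adhesion, guidance and matrix genes formed the longest list, with 25 sites in 20 genes, 10 higher and 15 lower, and a median size of 30.3 points. Of the 25 sites 5 had a p under 0.05, against 31.6% of all listed sites. Col5a3, a fibrillar collagen chain, was higher at 20798464 on chromosome 9, with 37.0%, 19.0% and 50% against 77.8%, 52.0%, 96.0% and 76.9% (quasi-binomial p = 0.0401, and 0.121 without control replicate 2). A second Col5a3 site at 20787307 was higher too, with overlapping groups (29.9 points, quasi-binomial p = 0.228). The clustered protocadherins, cell surface molecules that give neurons their identity, held 9 of the 25 sites in 5 genes on chromosome 18. All 9 were lower in maternal genistein tumours with a median of -31.5 points, 2 had a p under 0.05 and the groups were apart at 1. That site lies in Pcdha5, at 83.3%, 35.6% and 91.2% in controls against 0.971%, 25.5%, 28.3% and 24.0% (quasi-binomial p = 0.0268, up to 0.0744 with 1 library left out). On chromosome 18 the listed sites of every kind were lower at 54.0%, had a p under 0.05 at 32.4% and had separate groups at 25.6%.

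Cytoskeletal and motor genes held 16 sites in 12 genes, 12 higher and 4 lower, with a median size of 30.7 points. Of the 16 sites 3 had a p under 0.05, against 31.6% of all listed sites. Map1a, a microtubule-associated protein, read 58.8%, 38.8% and 55.5% in controls and 93.7%, 71.2%, 75.9% and 73.3% in maternal genistein tumours (quasi-binomial p = 0.0226, and 0.0507 without maternal genistein replicate 3). Myom3, a muscle M-band protein, was lower with 23.3%, 30.5% and 26.9% against 0%, 0%, 0% and 18.8% (quasi-binomial p = 0.0311, and 0.0903 without control replicate 2). Channels and transporters held 9 sites in 8 genes, 4 higher and 5 lower, and 2 had a p under 0.05, against the same 31.6%. These were Abcb1a and Slc6a5, a glycine transporter at 60.7%, 67.9% and 100% in controls and 100% in every maternal genistein tumour (quasi-binomial p = 0.0158, and 0.0649 without control replicate 2). The RNA binding list held 2 sites, of which Eif4e2, a cap-binding protein, was higher (28.4 points, quasi-binomial p = 0.0171, and 0.08 without control replicate 3) and Eif4b, a translation initiation factor, lower (-34.9 points, p = 0.212).

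The same DNA fragment often carried several sites, so sites are not independent. Of 66 neighbouring pairs within 1000 bases, 65 had the same direction, and the median difference in level between the members of a pair was 12.9 points. Of the 46 genes with several exonic sites, 45 had a single direction. The exception was Speg, a muscle kinase gene with CpGs 53 bases apart. Its site at 75423280 read 21.1%, 0% and 0% in controls and 42.1%, 0%, 46.2% and 50% in maternal genistein tumours, and its site at 75423333 read 38.1%, 0% and 100% in controls and 0% in all 4 others. With one site kept per group of neighbours, 57 of 197 (28.9%) had a p under 0.05, against 31.6% of all listed sites with neighbours included.

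Among the 19 genes with 3 or more sites, 12 were higher and 7 lower by the mean over their sites, and the library means did not overlap in 6. Intu, which acts in planar cell polarity and cilium formation, had 5 sites within 50 bases of chromosome 3, all lower. Their mean was 92.8%, 86.7% and 66.2% in controls and 55.4%, 0%, 14.3% and 29.3% in maternal genistein tumours. The site at 40683386 had a p of 0.00172 with levels of 68.1%, 71.4% and 56.2% against 23.1%, 0%, 14.3% and 21.4%. The other 4 had p of 0.0334 to 0.0468, and each exceeded 0.05 when single libraries were left out.

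Gpc2 averaged 52.1%, 29.1% and 54.5% in controls over its sites against 87.0%, 93.3%, 83.2% and 87.2%. Morn3, a MORN repeat gene, averaged 32.4%, 5.80% and 63.8% in controls over 3 sites against 94.4%, 77.7%, 95.5% and 86.3%. Both were separate between groups, though the Morn3 controls ranged widely. Efcab3 averaged 24.9%, 1.90% and 36.5% against 39.4%, 93.9%, 76.1% and 55.6%, where the gap between groups was small beside the range. C530008M17Rik and Pcdhga10 were the remaining 2 without overlap, and by a narrow margin each.

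In some other genes with 3 or more sites a single library lay far from the rest of its group or inside the other. Map4, a microtubule-associated protein, averaged 43.3%, 8.12% and 85.8% in controls and 82.5% to 90.5% in maternal genistein tumours, so control replicate 3 lay inside the other group. Fry averaged 87.5%, 17.2% and 75.9% in controls against 83.2% to 100%, with control replicate 2 far below the rest. Ccdc160 on the X chromosome averaged 87.3%, 8.56% and 77.2% in controls and 87.3%, 91.1%, 77.2% and 22.7% in maternal genistein tumours. Its 3 differences of 11.7 to 12.3 points all turned negative when control replicate 2 was left out.

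**Figure D3:**
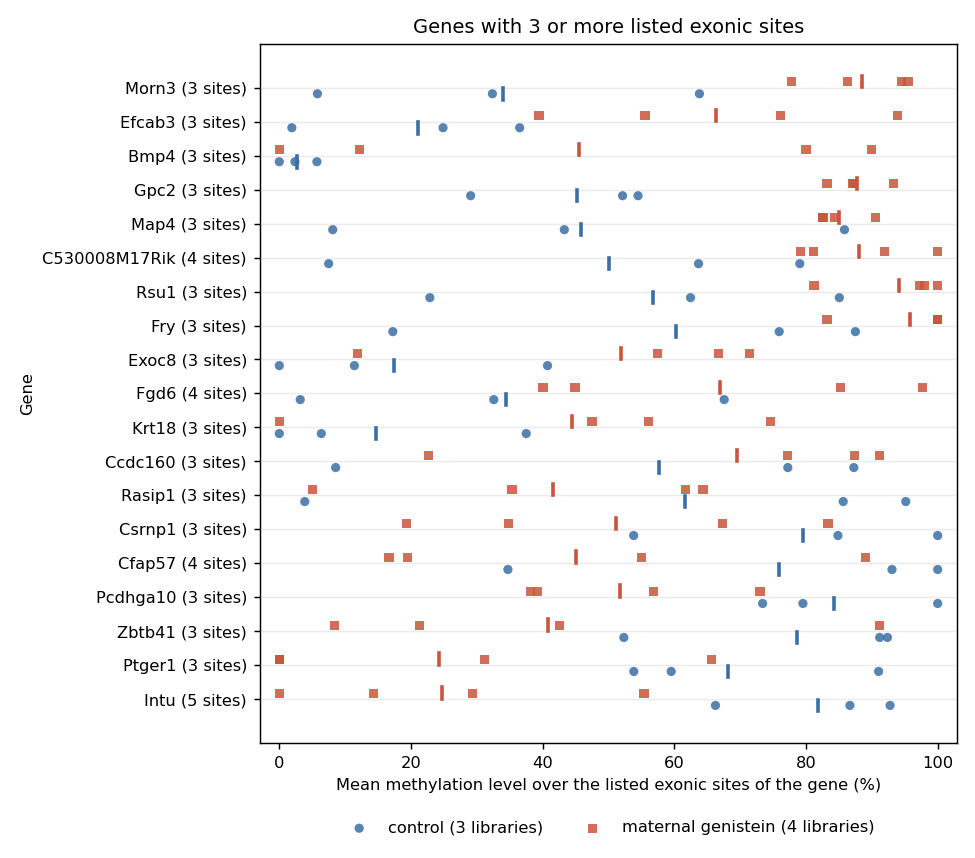
Mean methylation level in percent over the exonic sites of each of the 19 genes with 3 or more sites, 1 point per library in each group. Intu, Gpc2, Morn3, Efcab3, C530008M17Rik and Pcdhga10 have separate groups, and the other 13 overlap.

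Uniform groups were rare. All 4 maternal genistein tumours were at 100% at 7 sites and at 0% at 5, while all 3 controls were at 0% at 2 sites and at 100% at 2. At Pbdc1 on the X chromosome, both sites read 0% in every maternal genistein tumour, with controls at 0%, 0% and 53.4% at position 105079978. The p of 0.0125 at that site became 1 without control replicate 3. The X chromosome held 13 exonic sites, 6 higher and 7 lower, of which 5 had a p under 0.05 and the groups were apart at 0. Over all listed X sites those shares were 29.1% and 22.2%, and 69.0% were lower.

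The listed exonic sites lay more in the later part of their genes than at gene starts. No background of other CpGs was placed in the same way, so this describes the listed sites alone. For the 203 sites with a strand and a matched RefSeq gene, the median position was 66.4% of the way from start to end, with 26 in the first 10% and 39 in the last 10%. The 16 sites within 1000 bases of their own gene's start had a median control level of 39.5%, against 53.4% at the 178 sites farther away. Of these 16 sites 9 were higher and 7 lower, and of the 178 sites 109 were higher. Of the 193 genes, 41 also held a listed intronic site.

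Chromosome 5 held the most exonic sites, 32 in 20 genes, 20 of them higher. A p under 0.05 was found at 16 of the 32, and the groups were apart at 16, where all listed sites of that chromosome gave 32.6% and 30.6%. Gpc2, Morn3 and Afp, each with several sites on a short stretch, held 8 of the 16 with a p under 0.05. On chromosome 8, 13 of 18 exonic sites were lower (55.5% of all its listed sites), on chromosome 18 it was 14 of 18 (54.0%), and on chromosome 14 it was 2 of 14 (34.7%). Neighbouring sites of one gene count more than once here, and no test was made between chromosomes.

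The authors also deposited regions, stretches of CpGs called as a unit, and 3 of them contained exonic sites. The region in Intu on chromosome 3 (40683379 to 40683428) spans 5 CpGs, and the authors' deposited table puts it at 81.0% in controls and 25.1% in maternal genistein tumours. In Fam160b1 on chromosome 19 (57378942 to 57378982) the authors' deposited table gives 4 CpGs at 23.4% and 90.6%. The splicing site fell in the third, in Spx, which encodes the peptide hormone spexin, on chromosome 6 (142413977 to 142414108). That region has 8 CpGs at 64.2% and 28.8% in the authors' deposited table. The splicing site itself read 68.4%, 66.9% and 95% in controls and 0%, 27.9%, 15.4% and 100% in maternal genistein tumours, so replicate 4 stood with the controls (-40.9 points, quasi-binomial p = 0.0498, and 0.178 without maternal genistein replicate 2).

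RNA was compared by the authors in the same 2 groups, and their table of 1324 called genes held 21 of the 193 genes with an exonic site. That share of 10.9% stands against 12.5% of the 1309 genes with a listed site in an exon, intron or untranslated region. Which group is the numerator is unnamed in the header, so a positive fold is read as higher in maternal genistein tumours, the sign under which called genes follow relative DNA coverage over 20 chromosomes (Pearson's r = 0.901, a description). Of the 21 genes 10 had positive and 11 negative folds. Higher exonic methylation went with a positive fold in 8 genes and a negative one in 7, and lower methylation with a positive fold in 2 and a negative one in 4. The sign of a fold also went with chromosome. Among called protein-coding genes the share with a positive fold ran from 18.1% on chromosome 2 to 86.8% on the X chromosome. The part of this in the pairs of methylation and RNA was not tested.

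In the authors' deposited table Sdk1 stood at 4.58 (SE 0.47) on the log2 scale and Lhx1 at 4.54 (SE 0.63), both with higher methylation at their exonic site. Morn3 stood at -3.27 (SE 0.65) in the authors' deposited table, also with higher methylation. Lef1, a transcription factor of Wnt signalling, was at -3.02 in the authors' deposited table, and its exonic site averaged 29.3% in controls and 62.8% in maternal genistein tumours. Its libraries overlapped, since maternal genistein replicate 4 read 0%.

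Irx3 stood at -1.72 (SE 0.51) in the authors' deposited table, beside its site that was at 15.2% or below in controls. Masp1, a protease of the lectin pathway of complement, was at 3.77 in the authors' deposited table, and both of its exonic sites were lower (mean 86.7% in controls and 52.0% in maternal genistein tumours). Bahcc1, Col4a1 and Eif4b were lower at their exonic site and had negative folds of -2.06, -1.30 and -0.92 in the authors' deposited table. Ctnnd2, a delta catenin, had a fold of -2.25 in the authors' deposited table, with methylation of 35.2%, 6.06% and 0% in controls against 58.3%, 88.2%, 35% and 76.9%. That pair of groups overlapped by a fraction of a point.

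Krt18, the keratin of luminal epithelium, was at -1.18 (SE 0.40) in the authors' deposited table, and its 3 sites averaged 37.5%, 0% and 6.38% in controls and ranged from 0% to 74.6% in maternal genistein tumours. The basal markers Krt5 and Trp63 were at 4.49 and 4.73 in the authors' deposited table, and Elf5, of luminal progenitors, at -2.68. These were the 4 called of the 11 epithelial markers, while basal Krt14 and luminal Krt8 and Krt19 were not called, nor were Cdh1, Csn2 and Wap. The part of the called markers in the methylation differences was not tested. Epcam, an epithelial adhesion molecule, was not among the called genes, and its 2 exonic sites were higher with overlapping groups (quasi-binomial p = 0.194 and 0.114).

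**Figure D4:**
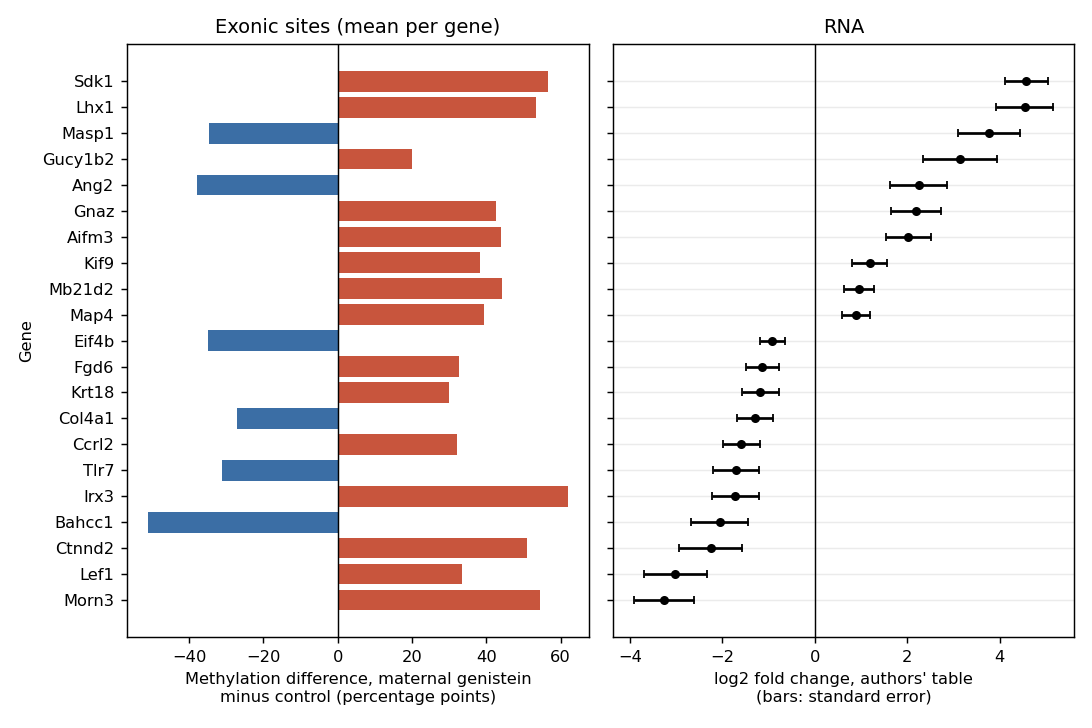
Difference in mean exonic methylation in percentage points, maternal genistein minus control (left panel), for the 21 called genes with an exonic site. The right panel gives their log2 fold change in RNA from the authors' table, with bars for the standard error. Higher methylation goes with a positive fold in 8 genes and a negative one in 7. Lower methylation goes with a positive fold in 2 genes and a negative one in 4.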

How the data were processed

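Mammary tumour DNA was measured by RRBS in 3 control and 4 maternal genistein libraries. The submitters' processing notes name Bismark, Trim Galore and FastQC, then STAR, DESeq and HTSeq, with R 3.6.1 and the builds GRCm38 and mm10, and no role for each. Per the file headers, the authors deposited read counts (coverage, methylated and unmethylated) per library and site, with percent methylation, p-values, q-values and differences in points. In that table the highest q-value was 0.00959, the smallest pooled difference 25.0 points in size and the lowest coverage 10 reads. The authors' RNA table holds a mean normalised signal, a log2 fold change with its SE, and adjusted p-values, and their region table a methylation fraction, printed here as percent. The sign of the RNA fold change is not named in the header.

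Library levels are methylated reads over coverage. A quasi-binomial model (Pearson dispersion with a floor of 1, F test, 5 residual degrees of freedom) was fitted at all 4327 listed sites, with Benjamini-Hochberg adjustment over them, and checked on simulated data. Adjusted p-values without another name come from this model. The list was chosen by the authors for the same contrast, so these tests are lenient. An exact permutation test of library levels (two-sided) was added at single sites. Alternatives were a coverage of at least 20, a chi-square reference, no dispersion floor, an unweighted arcsine linear model, a replicate block, exonic sites without the splicing site, 1 site per group of neighbours within 1000 bases, and leaving out each library. Intervals are exact binomial (95%), and a count of 0 allows 3 reads.

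The sites, gene lists and tests were chosen with earlier results of these data known, and 6 genes that a symbol pattern had put in the wrong list were dropped after their values were seen. Named sites were the 12 with the lowest p, the 8 largest separate differences in each direction, genes with at least 3 sites, up to 12 genes also called in RNA, sites in deposited regions, the splicing site, up to 4 genes per role list, genes of mixed direction and sites uniform in 1 group. Col5a3, Epcam, Bahcc1, Col4a1 and the second sites of named genes were added after their values were seen. Of the exonic sites 262 matched a RefSeq gene (GRCm38.p6) by symbol. Python 3.11.15, numpy 2.4.6, pandas 2.3.3, scipy 1.17.1 and matplotlib 3.10.9 were used.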

Additional observations from a re-analysis of the deposited data

Results flagged for a closer look

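At 24 of the 123 named sites 1 maternal genistein library stood apart from the other 3 by Dixon's ratio at its 95% critical value. Chance flags about 1 in 20 groups of continuous values, but the levels here are bounded percentages. Where the other 3 libraries were tied, any different level was flagged, as at Fam160b1, Sirt1, Myom3 and Zfp827. Neighbouring sites, such as those of Fry, also counted more than once. The count of 24 therefore cannot be judged against 1 in 20. The control group of 3 is too small for Dixon's ratio. The lone library was the highest at 8 sites. Replicate 4 was highest at Map4 (100% at 110052183), Igsf10 (100%), Cfap57 (100% at 118614955), both Fgf1 sites (9.09% and 22.7%) and Myom3 (18.8%). Replicate 1 was highest at Zfp827 (17.1%) and Pcdhgc3 (21.7% at 37807901).

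The lone library was the lowest at the other 16 sites. Replicate 1 was lowest at Pcdha5 (0.971%), Slx4ip (0% at 137068043), Afp (0% at 90492716), Rsu1 (66.7% at 13077600) and Sirt1 (69.0%). Replicate 2 was lowest at Fam160b1 (75.0%), the 3 Fry sites (81.8%, 81.4% and 86.4%), Speg (0% at 75423280) and Prdm1 (24.2% at 44446977). Replicate 3 was lowest at 2 sites of C530008M17Rik (93.8% and 92.3%) and at Gucy1b2 (72.7%). Replicate 4 was lowest at Ccdc160 (29.3% at 52798592 and 12.2% at 52798628). That library still lay outside the control range at sites including those of Fam160b1, Igsf10, Slx4ip, Afp, Pcdha5, Myom3 and Zfp827. The same held at Map4 and at the C530008M17Rik site with 93.8%.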

How the results depend on the processing

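Of the exonic sites, 80 had a p under 0.05, 0 passed adjustment, 65 had separate groups and 146 were higher. Requiring 20 reads in every library left 42 sites, of which 13 had separate groups and 25 were higher. A p under 0.05 was found at 11 of the 42 (26.2%, against 35.5% of all listed sites at that coverage). A chi-square reference, which takes the dispersion as known, gave 128 sites with a p under 0.05 (48.7%, against 55.8% of all listed sites). It passed 94 exonic sites at adjustment, and 1731 of the 4327 listed sites. Without the dispersion floor 1 exonic site passed (Abcb1a), and 14 of all listed sites. With the arcsine model 4 exonic sites passed, and 23 of all listed sites. These 4 were Ywhag, Abcb1a, Klhl1 and E2f8, with adjusted p of 0.0287, 0.0211, 0.0400 and 0.0149 under the arcsine model. Leaving out each library gave 55 to 76 sites with a p under 0.05 (20.9% to 28.9%, against 22.8% to 29.4% of all listed sites). In these fits 0 to 0 passed adjustment, 142 to 147 were higher and 80 to 114 had separate groups, the last without control replicate 3. Fewer libraries separate more easily. Of the 80 sites 26 kept a p under 0.05 in all 7 of these fits and 31 in 3 or fewer. The labels do not say whether replicate numbers pair the tumours, so the main model treated them as unpaired. Deviations of same-numbered libraries correlated at 0.0221, 0.00903 and -0.0323, and not every library correlated best with its own number. Such correlations cannot decide whether the tumours shared a litter or batch. With a replicate block 59 sites had a p under 0.05 (22.4%, against 23.1% of all listed sites). Of these 59, 35 were shared with the 80, and 0 passed adjustment.

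Over the named sites and all alternatives, 1133 values kept direction and side of 0.05, 162 no longer had a p under 0.05, 68 newly had one and 9 changed sign. With 1 library left out at a time, differences in points that changed sign ran as follows. Ccdc160 ran from -16.4 to 28.9 at 52798592, from -10.5 to 28.7 at 52798628 and from -11.1 to 31.8 at 52798629, Gucy1b2 from -3.48 to 33.5 and Csrnp1 at 119973613 from -29.3 to 3.01, and all 5 turned without control replicate 2. Fgf1 at 38847131 ran from -25.6 to 2.98, H1fnt from -7.93 to 28.2 and Cfap57 at 118614955 from -34.2 to 4.65, and all 3 turned without control replicate 3. Pcdhga10 at 37747829 ran from -28.3 to 0.684, turning without maternal genistein replicate 1. The cause was not tested. A median of 15 reads in maternal genistein replicate 4 limits the precision of single levels, and RNA values of genes outside the authors' calls were not used here.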
